A study of Mus musculus with 69 samples.

Results

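The genes described here are the Toll-like receptors measured beside Tlr7, with 2 surface co-receptors: Tlr1, Tlr2, Tlr4 and Tlr6, which encode cell surface receptors, Cd14 and Ly96, which encode their lipopolysaccharide co-receptors, and Tlr3, Tlr8, Tlr9 and Tlr13, which encode receptors of endosomes. They were chosen by gene symbol, and all 10 symbols had a row in each of 3 count tables, out of 54532 rows in the tables of the agonist and microglia experiments and 54429 rows in the table of the inhibitor experiment. Toll-like receptors are membrane proteins of the innate immune system that bind parts of microbes or of damaged cells. The surface receptors bind mostly lipids and lipoproteins, the endosomal receptors bind nucleic acids, and both kinds pass the signal through adaptor proteins to kinases and to NF-kB. In brain, microglia carry most of the family, while Tlr3 is also known from astrocytes and neurons.

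The study asked how Tlr7, a receptor of endosomes for single-stranded RNA, bears on differences between the sexes in demyelination. Its 3 experiments were sequenced from the 3′ ends of messenger RNAs, and the first used primary microglia from mice at postnatal days 1 to 3. These cultures carried TLR7:-/- (KO) or were wild type (WT), came from females or males, and received myelin or DMSO, with 3 libraries in each of 8 groups. The second used hippocampus of WT mice that received gardiquimod, an agonist of TLR7, or saline, with 7 libraries for each sex and treatment. Here the females were 9.60 and the males 12.12 months old, so sex and age cannot be told apart. The third used hippocampus of mice with the genotype label PSUK+ that received a TLR7 inhibitor or control treatment. It held 5 female and 6 male inhibitor libraries and 3 control libraries of each sex, at ages of 5.50 to 6.85 months, where 1 age had no unit in the labels and was read as months. Ages were not balanced: 5 of 6 inhibitor males and all 3 control males were 5.50 months old, as were 1 of 5 inhibitor females and 2 of 3 control females. The labels did not name the inhibitor, its dose or the control treatment, nor how Tlr7 had been deleted, nor whether animals were pooled, so p-values measure the spread between libraries.

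Library totals were 15.3 to 21.3 M counts (M for mega) in microglia, 14.3 to 23.5 M with gardiquimod or saline, and 14.4 to 21.0 M in the PSUK hippocampus. Levels are given as CPM, in which a gene's count is divided by the size of its library after correction by trimmed-mean factors, and since each messenger gives about 1 tag whatever its length, levels of different genes were compared without a length correction. Tlr7 itself lay at 1.26 to 2.75 CPM in the 12 KO microglia libraries, against 167 to 198 CPM in the 12 WT libraries. Markers of microglia summed to 3582 to 5078 CPM in the cultures and to 229 to 495 CPM in the hippocampal libraries, where markers of neurons summed to 3641 to 5375 CPM. The labels describe all RNA as taken from microglia, and the hippocampal libraries thus go against that description. In the inhibitor experiment, male inhibitor replicates 1 and 2 held 10.96 and 3.23 CPM of the female transcript Xist, against at most 0.365 CPM in the other male libraries. In these bulk samples, fewer cells of a type and less RNA per cell cannot be told apart.

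The genes lie on several chromosomes of the mouse genome (build GRCm38), and all are annotated as protein-coding. Tlr1 (chromosome 5, 64924679 to 64933563) and Tlr6 (chromosome 5, 64952031 to 64960097) are neighbours on the minus strand, 18.5 kb apart. Tlr8 (chromosome X, 167242696 to 167264329, minus strand) lies 40.6 kb from Tlr7 (chromosome X, 167304929 to 167330558, minus strand), the deleted gene. Tlr13 is also on chromosome X (106143204 to 106160493, plus strand). Tlr2 is on chromosome 3 (83836272 to 83841767), Tlr4 on chromosome 4 (66827584 to 66930284), Tlr3 on chromosome 8 (45395665 to 45411080), Tlr9 on chromosome 9 (106222598 to 106226883) and Ly96 on chromosome 1 (16688051 to 16709611).

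Promoter sequence of 7 of the 10 genes, all but Tlr4, Ly96 and Cd14, was taken from the RefSeq table of build GRCm38.p6. The 3 windows below hold the 250 bases before a start site of Tlr1, Tlr8 and Tlr9, which are shown because these were the genes that fell with myelin in all 4 kinds of culture. Capitals mark a match to 1 of 4 searched motifs, on either strand: TGANTCA for AP-1, GAGGAAGT for PU.1, the myeloid lineage factor, and the consensus letters of NF-kB and of the interferon-stimulated response element, with free bases at the variable positions.
Tlr1 promoter, chr5:64933559-64933808, minus strand: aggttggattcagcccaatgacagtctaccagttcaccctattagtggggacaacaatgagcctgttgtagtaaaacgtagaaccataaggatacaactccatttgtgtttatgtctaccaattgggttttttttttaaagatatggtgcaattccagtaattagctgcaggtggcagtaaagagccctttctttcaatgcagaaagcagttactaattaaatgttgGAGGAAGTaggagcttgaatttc
Tlr8 promoter, chrX:167264330-167264579, minus strand: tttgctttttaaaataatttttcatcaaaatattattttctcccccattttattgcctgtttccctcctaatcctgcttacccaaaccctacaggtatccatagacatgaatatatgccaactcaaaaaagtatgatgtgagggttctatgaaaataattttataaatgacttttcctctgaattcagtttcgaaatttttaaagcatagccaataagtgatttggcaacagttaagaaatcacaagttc
Tlr9 promoter, chr9:106222348-106222597, plus strand: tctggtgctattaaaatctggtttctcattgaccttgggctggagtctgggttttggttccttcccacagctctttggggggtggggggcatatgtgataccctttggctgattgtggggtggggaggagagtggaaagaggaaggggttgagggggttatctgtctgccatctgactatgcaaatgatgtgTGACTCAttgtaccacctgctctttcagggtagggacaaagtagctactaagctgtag
The table gives 2 start sites for Tlr1, and the window of the other (chr5:64932700-64932949, minus strand) held none of the 4 motifs. The Tlr1 window shown held the PU.1 motif at bases -23 to -16, a motif present in 2.44% of the 32817 promoter windows of the table. The Tlr9 window held the AP-1 motif at bases -58 to -52, present in 6.75% of windows, and the Tlr8 window held none of the 4. Among the other genes with a window, the Tlr3 window held the NF-kB motif as GGGAGTTTCC at bases -211 to -202, which 0.357% of windows hold. Of 2 Tlr6 windows, 1 held overlapping matches to the response element, TTTCTCTTTC and TTTCACTTTC, between bases -116 and -101, on the minus strand, a motif of 2.97% of windows. A match describes the letters alone.

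In cultured microglia the family spanned a wide range of levels, with the endosomal receptor Tlr13 highest and the endosomal receptor Tlr9 lowest. Tlr13, which binds bacterial ribosomal RNA in mouse, averaged 382 ± 7.91 CPM in female WT cultures with DMSO and 361 ± 11.99 CPM in male ones (SD, n = 3 each). Cd14, which hands lipopolysaccharide to the Tlr4 complex, averaged 257 and 256 CPM in the same female and male cultures. Tlr8 followed with 126 and 116 CPM, and then Tlr2, the receptor for bacterial lipoproteins, with 107 and 111 CPM. The groups of neighbours in this order did not overlap down to Tlr4, the lipopolysaccharide receptor, at 90.7 and 88.3 CPM. Tlr1, which pairs with Tlr2 on triacylated lipoproteins, came next at 58.7 CPM in females and 58.1 CPM in males.

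The remaining genes were lower. Tlr6, which pairs with Tlr2 on diacylated lipoproteins, averaged 24.99 CPM in female and 23.3 CPM in male WT cultures with DMSO. Tlr3, the receptor for double-stranded RNA, averaged 17.8 and 19.0 CPM, and the Tlr6 and Tlr3 libraries overlapped in males but not in females. Ly96, which encodes the protein that binds lipopolysaccharide on Tlr4, averaged 9.10 and 8.60 CPM. Tlr9, the receptor for unmethylated CpG DNA, averaged 7.36 and 7.21 CPM, and its libraries overlapped those of Ly96 in females but not in males.

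In hippocampus the order was another, and Tlr3 stood above every other member. Its group means ran from 11.9 to 20.8 CPM across the 8 hippocampal groups, while no other member had a group mean above 3.22 CPM. The median of Tlr3 over 24 microglia libraries was 1.02 times its median over the 28 libraries of the agonist experiment. The same ratio was 3.71 for Tlr9, 9.06 for Ly96, 37.2 for Tlr6, 38.4 for Tlr4, 57.1 for Tlr1, 71.8 for Tlr2, 79.7 for Cd14 and 166 for Tlr13. These ratios set tables against each other that were scaled separately, and they carry no test. Tlr8 had 0 to 8 counts in a hippocampal library of the agonist experiment and 0 to 5 in the inhibitor experiment. It was therefore too low to be tested there, which left 9 of the 10 genes tested in each hippocampal experiment and all 10 in microglia.

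**Figure D1:**
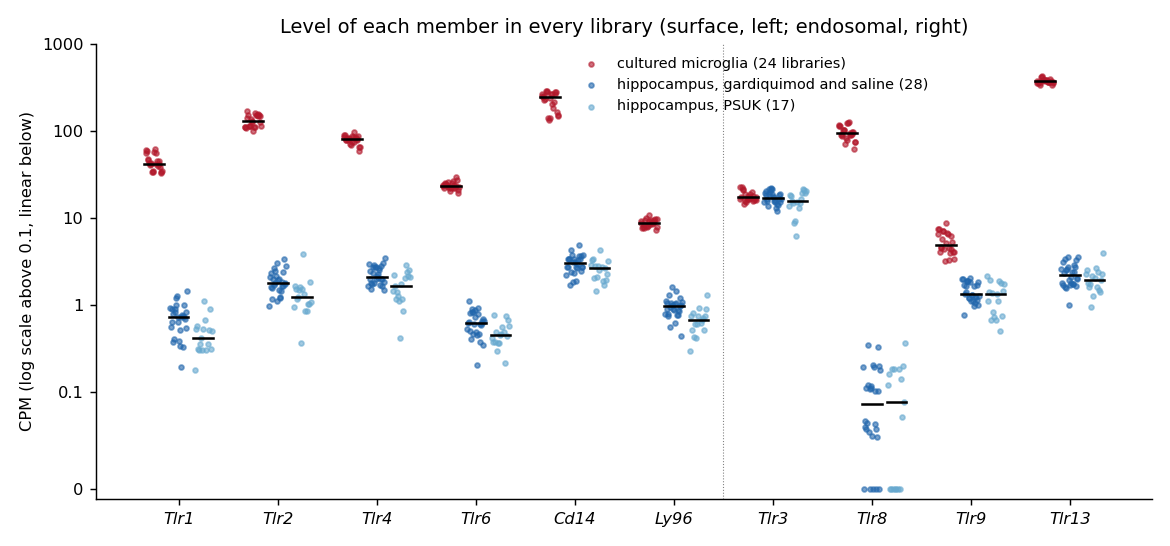
CPM of each gene in every library (points) with the median (black line), on an axis that is logarithmic above 0.1 CPM and linear below it, for 24 microglia, 28 agonist experiment and 17 inhibitor experiment libraries. Tlr3 lies at similar levels in the 3 experiments, and the other 9 genes have higher medians in microglia.

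Myelin lowered Tlr1, Tlr8 and Tlr9 in the microglia of both sexes and both genotypes. Tlr8 had 61.9, 74.8 and 75.0 CPM in female KO cultures with myelin, against 92.8, 98.4 and 97.6 CPM with DMSO, and the groups did not overlap. In male KO cultures Tlr8 had 70.2, 84.1 and 79.0 CPM with myelin, against 102, 102 and 102 CPM with DMSO. Female WT cultures had 90.3, 95.6 and 89.7 CPM of Tlr8 with myelin, against 125, 124 and 129 CPM with DMSO. Every myelin library thus lay below every DMSO library of its culture, and the male WT groups, with 88.7 to 91.9 CPM against 115 to 118 CPM, did not overlap either. The log2 fold changes, myelin over DMSO, were -0.42 ± 0.05 in female KO, -0.40 ± 0.05 in male KO, -0.45 ± 0.05 in female WT and -0.35 ± 0.05 in male WT cultures (± SE). Their adjusted p-values were 1.42e-09, 4.40e-09, 1.03e-10 and 8.62e-08 (edgeR quasi-likelihood test with Benjamini-Hochberg adjustment over the 14468 genes tested, threshold 0.05, as for every adjusted p of the microglia).

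Tlr1 moved by a similar amount. Female WT cultures had 41.5, 45.6 and 39.9 CPM of Tlr1 with myelin, against 57.2, 62.7 and 56.2 CPM with DMSO, a log2 fold change of -0.47 ± 0.06 (adjusted p = 1.35e-09, edgeR). The other log2 fold changes of Tlr1 were -0.29 ± 0.06 in female KO, -0.30 ± 0.06 in male KO and -0.33 ± 0.06 in male WT cultures, each past the threshold. In all 4 cultures the myelin and DMSO libraries of Tlr1 did not overlap. Tlr9 was lower still in relative terms, from low levels. It had 3.31, 4.54 and 4.01 CPM in female WT cultures with myelin, against 8.70, 6.70 and 6.66 CPM with DMSO, a log2 fold change of -0.89 ± 0.17 (adjusted p = 1.07e-05, edgeR). The values of Tlr9 were -0.69 ± 0.17 in male WT, -0.64 ± 0.17 in male KO and -0.44 ± 0.17 in female KO cultures. The last had an adjusted p of 0.0340 (edgeR) and lost its call without female KO DMSO replicate 2 (log2 -0.30, adjusted p = 0.233), replicate 3 (-0.44, 0.0598) or female KO myelin replicate 2 (-0.37, 0.127), and with DESeq2 (-0.44, 0.0523). With the levels of Ttr (choroid plexus) and Pdgfra (oligodendrocyte precursors) as covariates, the female KO calls of Tlr1 (log2 -0.08, adjusted p = 0.764), Tlr9 (-0.34, 0.597) and Tlr6 (-0.34, 0.167) were lost.

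Tlr2 rose with myelin in WT cultures of both sexes. It had 163, 151 and 154 CPM in female WT cultures with myelin, against 100, 110 and 111 CPM with DMSO. Male WT cultures had 171, 140 and 152 CPM with myelin, against 112, 113 and 108 CPM with DMSO, and the libraries of myelin and DMSO did not overlap in either sex. The log2 fold changes were 0.55 ± 0.08 in females (adjusted p = 1.22e-05) and 0.49 ± 0.08 in males (adjusted p = 4.67e-05, edgeR). The KO cultures did not pass the threshold by edgeR, and DESeq2 called both (adjusted p = 0.0247 in females and 0.0396 in males). Male KO cultures had 136, 130 and 126 CPM of Tlr2 with myelin, against 115, 113 and 116 CPM with DMSO, a log2 fold change of 0.18 ± 0.08 (adjusted p = 0.0873, edgeR). Female KO cultures had 148, 128 and 116 CPM with myelin, against 157, 148 and 152 CPM with DMSO, and only the female KO groups overlapped for Tlr2 (log2 -0.19 ± 0.08, adjusted p = 0.0525, edgeR). This female value was called in 16 of 31 alternative fits, among them that with the replicate number as a block (-0.20 ± 0.07, adjusted p = 0.0279, edgeR). Same-numbered female KO libraries deviated together (r = 0.442, 0.214 and 0.117), but a female KO pair of different numbers also had r = 0.277. The block applied the replicate number across all groups, while same-numbered libraries deviated together in no other sex and genotype. Whether the block captures a pairing of the female KO libraries was not tested. The male value was called in 6 of 31.

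Cd14 showed the other pattern, with its largest falls in KO cultures. It had 140, 136 and 142 CPM in male KO cultures with myelin, against 291, 288 and 278 CPM with DMSO. In female KO cultures Cd14 had 164, 153 and 149 CPM with myelin, against 284, 268 and 278 CPM with DMSO. The KO groups lay far apart, and the log2 fold changes were -1.05 ± 0.05 in males and -0.81 ± 0.05 in females (adjusted p = 2.49e-15 and 4.89e-13, edgeR). Female WT cultures had 206, 186 and 216 CPM of Cd14 with myelin, against 241, 263 and 268 CPM with DMSO (log2 -0.34 ± 0.05, adjusted p = 3.16e-06, edgeR). Male WT cultures had 251, 228 and 233 CPM with myelin, against 254, 268 and 248 CPM with DMSO, and these groups overlapped (log2 -0.09 ± 0.05, adjusted p = 0.150, edgeR).

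The lipopolysaccharide receptor Tlr4 fell with myelin in 3 of the 4 cultures. Its log2 fold changes were -0.35 ± 0.05 in female KO, -0.19 ± 0.05 in male KO and -0.16 ± 0.05 in female WT cultures. In male WT cultures it was -0.11 ± 0.05 and did not pass (adjusted p = 0.0736, edgeR). This male value was called in 10 of 31 alternative fits. Among them were the replicate block (adjusted p = 0.0351), Ttr and Pdgfra as covariates (0.0167) and library totals as the scaling (0.0011, all edgeR). The female WT call of Tlr4 was lost without female WT DMSO replicate 3 (log2 -0.11, adjusted p = 0.122) or female WT myelin replicate 1 (-0.13, 0.0641). Tlr6 fell in female KO cultures, with 19.7, 20.9 and 22.7 CPM with myelin against 23.3, 30.0 and 27.6 CPM with DMSO (log2 -0.33 ± 0.08, adjusted p = 3.43e-04, edgeR). Tlr13 fell slightly in male KO cultures, with 381, 389 and 391 CPM with myelin against 418, 417 and 427 CPM with DMSO (log2 -0.13 ± 0.03, adjusted p = 4.51e-04, edgeR). The values of Tlr13 in female KO, female WT and male WT cultures were -0.07, -0.06 and -0.01, none past the threshold. That of female KO cultures (adjusted p = 0.0758, edgeR) was called in 14 of 31 alternative fits, DESeq2 among them (0.0497). Tlr3 and Ly96 passed in no culture, and the lowest adjusted p was 0.0512, for Tlr3 in male WT cultures (log2 0.22 ± 0.09, edgeR).

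Counted together, 6 of 10 members fell and none rose with myelin in female KO cultures, where 41.2% of all genes were called, and 20.4% were lower. In male KO cultures 6 fell and none rose, beside 38.2% of all genes called, and 20.2% lower. In female WT cultures 5 fell and 1 rose, beside 40.4% called, and 21.1% lower. In male WT cultures 3 fell and 1 rose, beside 39.3% called, and 19.4% lower. The members called, in either direction, were thus 4 to 6 of 10 in each culture, a share near the background in male WT cultures and somewhat above it in the others. The median log2 fold change of the members was -0.31 in female KO, -0.18 in male KO, -0.15 in female WT and -0.09 in male WT cultures, while that of all genes was 0.01, -0.01, 0.00 and 0.00. Markers of microglia moved too: their sum was 3582 to 4094 CPM in myelin libraries, against 4781 to 5078 CPM in DMSO libraries, with 6 to 8 of the 10 markers lower in each culture. Border macrophage markers summed to 841 to 959 CPM in KO cultures with myelin, against 972 to 1073 CPM with DMSO, and to 1150 to 1193 CPM in WT cultures with myelin, against 1421 to 1523 CPM with DMSO. Of the 4 of them tested, 3 were lower and 1 higher in each culture. Oligodendrocyte markers summed to 523 to 870 CPM in myelin libraries, against 184 to 301 CPM in DMSO libraries, with 2 of 6 markers higher in each culture and 1 to 4 lower. The part of the microglia and oligodendrocyte markers in the changes with myelin was not tested. With the border macrophage markers as a covariate no member lost its call for myelin over DMSO, and Tlr1 had log2 fold changes of -0.25 in female KO, -0.29 in male KO, -0.35 in female WT and -0.27 in male WT cultures.

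**Figure D2:**
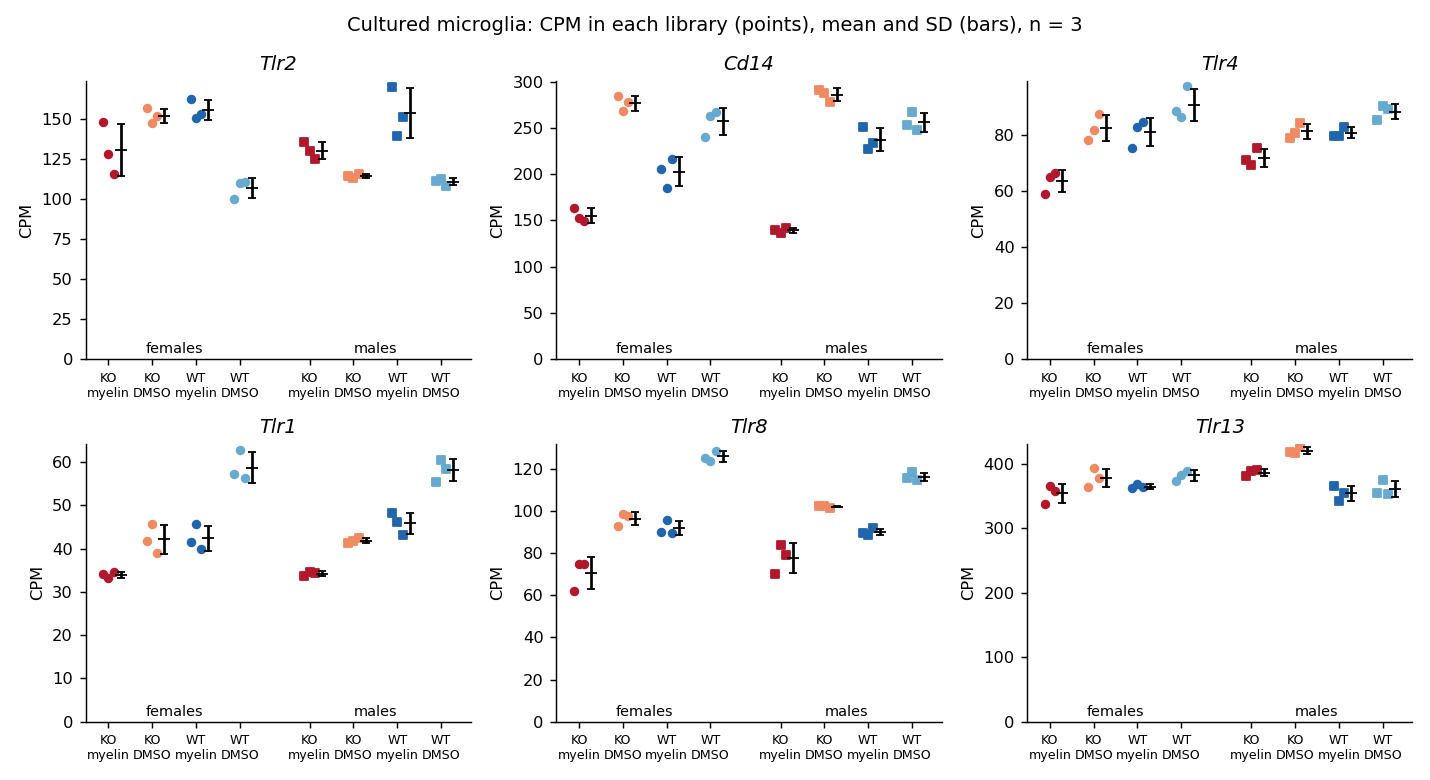
CPM of Tlr2, Cd14, Tlr4, Tlr1, Tlr8 and Tlr13 in each microglia library (points; circles, females; squares, males), with the mean and SD of 3 libraries beside them and a linear axis from 0. Cd14 lies at 136 to 164 CPM in the 6 KO libraries with myelin and above 185 CPM in all other libraries, and Tlr1 is lower in KO than in WT at each treatment.

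**Figure D3:**
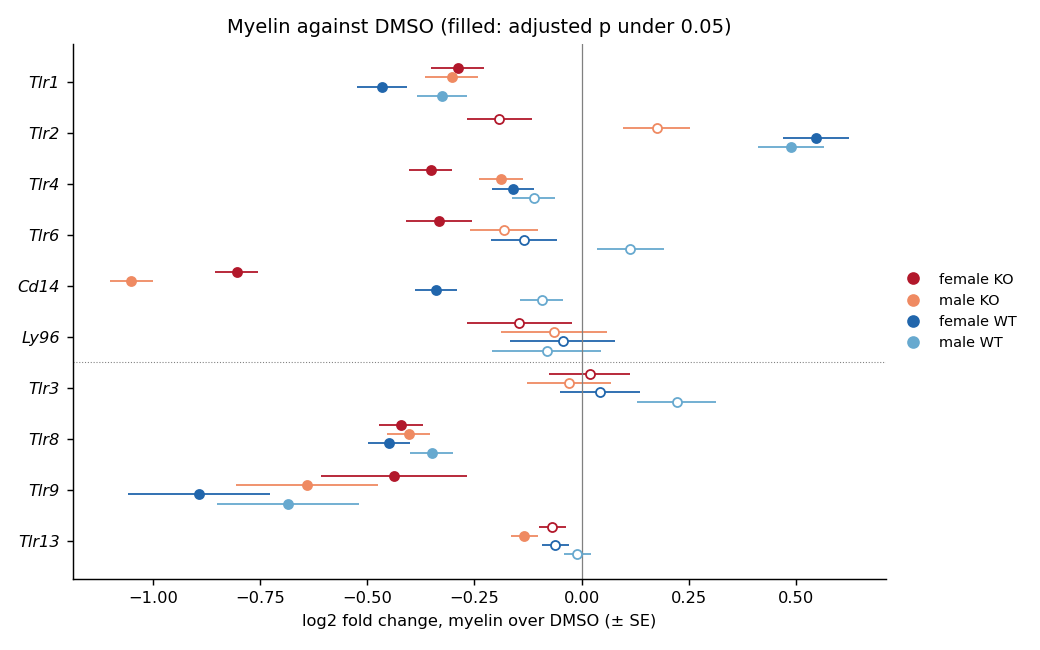
Log2 fold change of each member, myelin over DMSO, with its SE in female KO, male KO, female WT and male WT microglia; filled points passed the threshold of 0.05 on the adjusted p. Tlr1, Tlr8 and Tlr9 are filled and below 0 in all 4 cultures, Tlr2 is filled above 0 in WT cultures, and Cd14 lies at -1.05 and -0.81 in KO cultures.

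Deletion of Tlr7 went with lower Tlr1 and Tlr8 in both sexes and both treatments. Tlr1 had 41.8, 45.7 and 39.1 CPM in female KO cultures with DMSO, against 57.2, 62.7 and 56.2 CPM in female WT cultures (log2 -0.49 ± 0.06, adjusted p = 3.28e-09, edgeR). Male KO cultures with DMSO had 41.3, 41.7 and 42.5 CPM of Tlr1, against 55.4, 60.5 and 58.4 CPM in male WT cultures (log2 -0.48 ± 0.06, adjusted p = 4.02e-09, edgeR). With myelin, the log2 fold changes of Tlr1, KO over WT, were -0.31 ± 0.06 in females and -0.45 ± 0.06 in males. The KO and WT libraries of Tlr1 did not overlap in any of the 4 comparisons. Tlr8, the neighbour of the deleted gene, fell by 0.40 in female and 0.19 in male cultures with DMSO on the log2 scale. With myelin it fell by 0.37 in females and by 0.24 in males, each with an SE of 0.05. All 4 values of Tlr8 passed the threshold, with adjusted p-values of 1.92e-08, 0.00417, 4.65e-07 and 3.47e-04 (edgeR).

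Markers of another cell type moved with the genotype. A list of 6 genes of border macrophages, the macrophages of brain membranes and vessels, summed to 841 to 1073 CPM in KO libraries, against 1150 to 1523 CPM in WT libraries. Choroid plexus markers summed to 4.47 to 22.1 CPM in male KO libraries, against 127 to 222 CPM in male WT libraries. In females they spanned 43.6 to 540 CPM in KO and 84.4 to 212 CPM in WT libraries. With the border macrophage markers as a covariate the calls of Tlr1 and Tlr8 remained in all 4 comparisons. With Ttr and Pdgfra as covariates, Tlr1 lost its call in male cultures with DMSO (log2 -0.31, adjusted p = 0.184) and with myelin (-0.25, 0.408). Tlr8 kept its calls in that fit. In male cultures the same fit also ended the calls of Tlr13 and Cd14 with DMSO (0.11 and 0.30, adjusted p = 0.421 and 0.109). In males with myelin it ended those of Tlr2, Tlr3, Tlr6 and Tlr13 (-0.03, -0.47, -0.44 and -0.0048, adjusted p = 0.975, 0.303, 0.206 and 0.988). In females with DMSO it ended those of Tlr4 and Tlr9 (-0.08 and -0.51, adjusted p = 0.567 and 0.207). For Tlr2, Tlr3, Tlr6 and Tlr13 in males with myelin the SEs were 0.17, 0.21, 0.17 and 0.07, each larger than without these covariates. The values of Tlr3 and Tlr6 were no smaller in size. Choroid plexus markers did not overlap between male KO and WT libraries, so this fit cannot cleanly part Ttr from the deletion in males. In males with myelin the border macrophage covariate ended the calls of Tlr2, Tlr4, Tlr6 and Tlr13 (adjusted p = 0.0549, 0.0538, 0.0707 and 0.175). The log2 fold changes in that fit were -0.27, -0.16, -0.23 and 0.07, against -0.27, -0.20, -0.24 and 0.10 without the covariate, and their SEs were larger.

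The co-receptor Cd14 went one way with DMSO and the other with myelin. With myelin Cd14 was lower in KO cultures, by 0.80 ± 0.05 in males and 0.37 ± 0.05 in females on the log2 scale (adjusted p = 4.57e-12 and 1.00e-05, edgeR). With DMSO Cd14 was 0.16 ± 0.05 higher in male KO cultures (adjusted p = 0.0243, edgeR), and the female difference of 0.09 did not pass. The male call with DMSO was lost without male WT DMSO replicate 1 or 3 or male KO DMSO replicate 1 or 2 (adjusted p = 0.0787, 0.104, 0.116 and 0.0914), and with library totals in place of trimmed-mean scaling (log2 0.06, adjusted p = 0.371). Tlr2 was higher in KO in females with DMSO, where it had 157, 148 and 152 CPM in KO cultures, against 100, 110 and 111 CPM in WT cultures (log2 0.49 ± 0.08, adjusted p = 2.24e-04, edgeR). In males with DMSO the Tlr2 difference was 0.04 ± 0.08. With myelin Tlr2 was lower in male KO cultures (log2 -0.27 ± 0.08, adjusted p = 0.0172, edgeR) and did not pass in females (-0.24 ± 0.08, adjusted p = 0.0638), where 7 of 31 alternative fits called it, DESeq2 among them (0.0185). The male call with myelin was lost without male WT myelin replicate 1 (log2 -0.17, adjusted p = 0.113) or male KO myelin replicate 3 (-0.23, 0.0771).

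Tlr4 passed as lower in KO than in WT cultures in 3 of the 4 comparisons, and fell most in females with myelin. There it had 58.9, 64.9 and 66.4 CPM in KO cultures, against 75.3, 82.8 and 84.7 CPM in WT cultures (log2 -0.34 ± 0.05, adjusted p = 1.42e-06, edgeR). The value was -0.20 ± 0.05 in males with myelin and -0.15 ± 0.05 in females with DMSO. The last, with an adjusted p of 0.0352 (edgeR), had overlapping groups and was called in 21 of 31 alternative fits. It ended without female KO DMSO replicate 1 or 2 or female WT DMSO replicate 3 (adjusted p = 0.219, 0.124 and 0.310). It also ended without female KO myelin replicate 2 or 3, male KO myelin replicate 1 or male WT myelin replicate 1, which enter only the shared spread (adjusted p = 0.0564 to 0.0634), with DESeq2 (0.0733) and without the filter on low counts (0.0603). In males with DMSO Tlr4 had -0.12 and did not pass (adjusted p = 0.0759, edgeR), while 6 of 31 alternative fits called it. Among them were the replicate block (adjusted p = 0.0346), Ttr and Pdgfra as covariates (log2 -0.38, 0.0128) and library totals as the scaling (-0.21, 5.21e-04, all edgeR).

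Tlr13 was higher in male KO than in male WT cultures. It had 418, 417 and 427 CPM in male KO cultures with DMSO, against 355, 375 and 353 CPM in male WT cultures (log2 0.22 ± 0.03, adjusted p = 1.98e-07, edgeR). With myelin the male difference was 0.10 ± 0.03 (adjusted p = 0.0234, edgeR). That call was lost without male WT myelin replicate 2 (log2 0.08, adjusted p = 0.0977) or male KO myelin replicate 2 (0.10, 0.0637) or 3 (0.10, 0.0633). With library totals as the scaling that value was 0.03 (adjusted p = 0.446), and with Ttr and Pdgfra as covariates its sign turned (-0.0048, adjusted p = 0.988). In females Tlr13 differed by -0.03 with either treatment, which did not pass.

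Tlr3 fell in male KO cultures with myelin, where it had 15.3, 16.7 and 16.5 CPM, against 22.9, 21.4 and 21.3 CPM in male WT cultures (log2 -0.46 ± 0.09, adjusted p = 1.61e-04, edgeR). Tlr6 fell in the same comparison (-0.24 ± 0.08, adjusted p = 0.0225, edgeR), a call that ended when any 1 of the 6 libraries compared was left out (adjusted p = 0.0532 to 0.105). Tlr9 was lower in female KO cultures with DMSO, with 4.38, 6.24 and 5.31 CPM against 8.70, 6.70 and 6.66 CPM in WT cultures (log2 -0.47 ± 0.16, adjusted p = 0.0408, edgeR). The Tlr9 call did not survive without female WT DMSO replicate 1 (log2 -0.34, adjusted p = 0.268), female KO DMSO replicate 1 (-0.35, 0.231) or replicate 3 (-0.46, 0.0958). It was also lost without female KO myelin replicate 3, male WT myelin replicate 1 or male KO myelin replicate 1, which enter only the shared spread (adjusted p = 0.0508, 0.0506 and 0.0528), and with DESeq2 (0.0733). Ly96 passed in none of the 4 comparisons.

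In female cultures with DMSO 4 members were lower and 1 higher in KO, beside 11.9% of all genes called, 6.48% lower and 5.42% higher. With myelin 4 were lower and none higher in female KO cultures, beside 7.28% called, 3.48% lower and 3.80% higher. In males with DMSO 2 were lower and 2 higher, beside 20.9% called, 9.32% lower and 11.6% higher. In males with myelin 7 were lower and 1 higher, beside 20.6% called, 10.6% lower and 10.1% higher. The share of members called was above that of all genes in each of the 4 comparisons. The median log2 fold change of the members was -0.18 with myelin and -0.06 with DMSO in females, and -0.24 and -0.04 in males, and that of all genes was within 0.01 of 0. The median of the 4 surface receptors was -0.28 in females and -0.25 in males with myelin, beside -0.08 and -0.16 for the 4 endosomal receptors. With DMSO the order of the 2 kinds was the other way round, with medians of -0.03 in females and -0.04 in males for the surface receptors, beside -0.25 and -0.15 for the endosomal receptors. The 4 genes of a kind did not move alike, and the order was not tested. With DMSO the surface receptors Tlr2 and Tlr4 had 0.49 and -0.15 in females. The endosomal receptors Tlr13 and Tlr3 had 0.22 and -0.21 in males with DMSO.

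**Figure D4:**
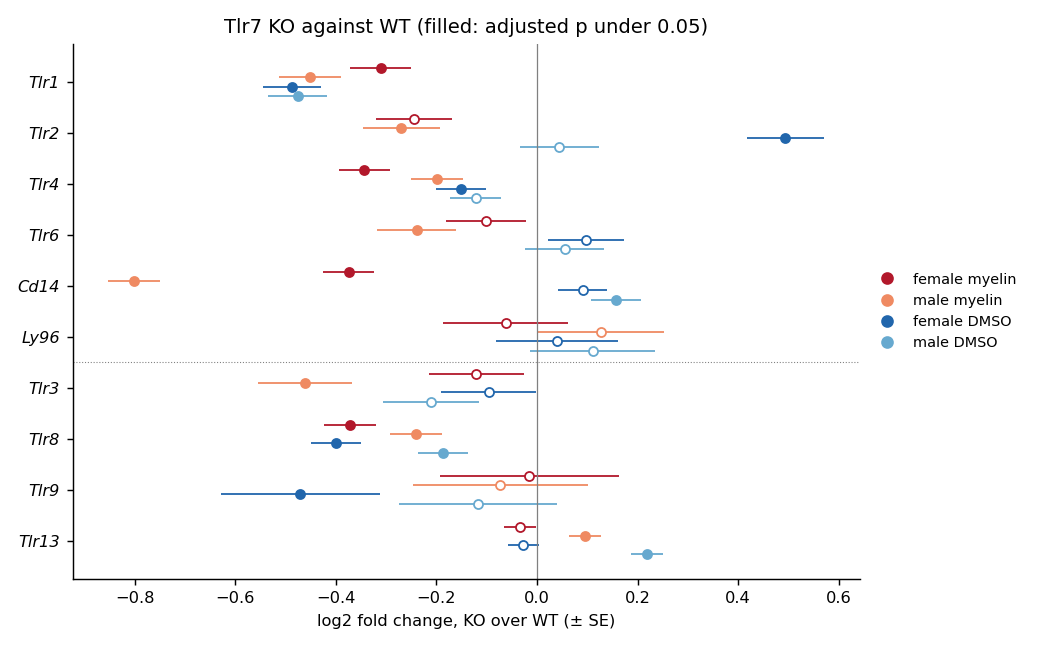
Log2 fold change of each member, KO over WT, with its SE in female and male microglia with myelin or DMSO; filled points passed the threshold of 0.05 on the adjusted p. Tlr1 and Tlr8 are filled and below 0 in all 4 comparisons, and Cd14 lies at -0.80 and -0.37 with myelin against 0.16 and 0.09 with DMSO in males and females.

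The response to myelin itself differed between KO and WT cultures for Cd14 and Tlr2. The interaction, the response in KO minus the response in WT, was -0.96 ± 0.07 for Cd14 in males (adjusted p = 1.30e-09, edgeR), where 2.56% of all genes were called and Cd14 alone among the members. In females it was -0.47 ± 0.07 for Cd14 (adjusted p = 4.87e-04) and -0.74 ± 0.11 for Tlr2 (adjusted p = 0.00149, edgeR), where 0.919% of all genes were called. The Tlr2 interaction in males was -0.31 ± 0.11 and did not pass (adjusted p = 0.181, edgeR). With the Ttr and Pdgfra levels as covariates the female values were -0.40 for Cd14 and -0.65 for Tlr2 (adjusted p = 0.0516 and 0.0687), while the male Cd14 call remained. Tlr1, Tlr8 and Tlr9, which fell in all 4 cultures, had interactions of 0.02, -0.05 and 0.04 in males and 0.18, 0.03 and 0.46 in females, none of which passed.

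The effect of the deletion also differed between the sexes for some members. With DMSO the effect in females minus that in males was 0.45 ± 0.11 for Tlr2 (adjusted p = 0.0159) and -0.25 ± 0.04 for Tlr13 (adjusted p = 9.02e-05, edgeR). For Tlr8 it was -0.21 ± 0.07 (adjusted p = 0.0490, edgeR), a call that held in 4 of 31 alternative fits and ended without any 1 of 22 libraries, all but male KO myelin replicate 2 and female KO myelin replicate 1 (adjusted p = 0.0509 to 0.140). Across all genes 7.53% were called. With myelin Cd14 had a difference of 0.43 ± 0.07 (adjusted p = 4.61e-04, edgeR), beside 6.51% of all genes. None of these calls held with Ttr and Pdgfra as covariates, where Tlr2 had 0.14, Tlr13 -0.14, Tlr8 0.12 and Cd14 0.27 (adjusted p = 0.964, 0.854, 0.939 and 0.507). With myelin the Tlr13 difference did not pass by edgeR. DESeq2 called it (-0.15, adjusted p = 0.0236), as did edgeR with the replicate block (-0.13, 0.0439).

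Between the sexes of WT cultures the members were close. With DMSO none differed by edgeR or by DESeq2, while Tlr8 and Tlr13 had an unadjusted p under 0.05 (log2 females over males 0.12 ± 0.05 and 0.09 ± 0.03), beside 3.70% of all genes called. With myelin Cd14 had 206, 186 and 216 CPM in females, against 251, 228 and 233 CPM in males (log2 -0.24 ± 0.05, adjusted p = 0.00690, edgeR), beside 2.69% of all genes. With Ttr and Pdgfra as covariates that difference was -0.11 and did not pass (adjusted p = 0.951). The response of WT cultures to myelin, females minus males, passed for 0 members by edgeR or DESeq2, and for Cd14 (-0.25 ± 0.07) and Tlr6 (-0.25 ± 0.11) at an unadjusted p under 0.05, where 0.0415% of all genes were called.

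Across the 24 microglia libraries, each member was set against 9620 genes with a mean of at least 4 CPM by Pearson's r, as a description of libraries that share treatment, genotype and sex. Tlr1 was most like Pf4 (r = 0.962), which is 1 of the border macrophage markers, followed by Dab2 and Cfp. Cd14 was most like Dusp1 (r = 0.937), a phosphatase gene induced early after stimulation, followed by Ets2 and Hcar2. Tlr4 was most like Tlr8 (r = 0.903), and Tlr8 most like Snx2 (r = 0.958). Tlr2 was most like Cxcl16 (r = 0.845), a chemokine, followed by Elk3 and Icam1. Tlr9 was most like Btbd9 (r = 0.918) and Tlr13 most like Hexa (r = 0.898), a lysosomal hydrolase. The lowest leading values were those of Tlr3 with Tor1aip1 (r = 0.833), Tlr6 with Proser1 (r = 0.749) and Ly96 with Lta4h (r = 0.701).

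Other genes of the pathway moved in microglia beside the receptors, while Tlr5, Tlr11 and Tlr12 were too low to be tested there. Of 15 NF-kB target genes tested, myelin raised 9 and lowered 3 in female KO, raised 7 and lowered 1 in male KO, and raised 11 and lowered 1 in both female and male WT cultures. Over all genes 41.2%, 38.2%, 40.4% and 39.3% were called in these 4 cultures. Il1a, a proinflammatory cytokine, had log2 fold changes of 1.43 in female KO, 1.384 in male KO, 1.78 in female WT and 1.79 in male WT cultures. The response of Il1a was smaller in KO than in WT cultures, by -0.35 ± 0.09 in females and -0.41 ± 0.09 in males (adjusted p = 0.0471 and 0.00535, edgeR). Of 9 accessory and trafficking genes, myelin raised 4 in each culture and lowered 3, or 4 in male KO. The scavenger receptor Cd36 had 0.79, 0.72, 0.74 and 0.73 in female KO, male KO, female WT and male WT cultures. Ly86, the partner of the receptor homologue Cd180, had -0.61, -0.56, -0.85 and -0.68 in the same order. Of 19 adaptors and kinases, 3 rose and 6 fell in each KO culture, 4 rose and 7 fell in female WT and 4 rose and 6 fell in male WT cultures. The 9 to 11 of 19 called were near the share of all genes in KO cultures and somewhat above it in WT cultures.

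Between genotypes the largest change among the adaptors and kinases, in each of the 4 comparisons, was in Wdfy1, which encodes a protein known to bring the adaptor TRIF to Tlr3 and Tlr4. Its log2 fold change, KO over WT, was 1.84 in females and 1.78 in males with myelin, and 1.88 and 2.0001 with DMSO. Among the NF-kB targets 2 chemokine genes changed by more in single comparisons: Cxcl1 had 1.90 in females with DMSO and Cxcl2 had -1.91 in males with myelin (adjusted p = 1.28e-05 and 1.27e-08, edgeR). Of the 15 NF-kB targets 2 were higher and 3 lower in female KO and none higher and 7 lower in male KO cultures with myelin, beside 7.28% and 20.6% of all genes called. With DMSO 6 were higher and 3 lower in female KO, and 4 higher and 2 lower in male KO cultures, beside 11.9% and 20.9%. Unc93b1, which carries the endosomal receptors out of the endoplasmic reticulum, was lower in male KO cultures, by 0.31 ± 0.03 with myelin and 0.20 ± 0.03 with DMSO on the log2 scale (adjusted p = 9.54e-12 and 9.46e-07, edgeR). In female KO cultures Unc93b1 had -0.21 ± 0.03 with myelin and -0.15 ± 0.03 with DMSO (adjusted p = 1.29e-06 and 4.03e-04, edgeR).

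In hippocampus no member passed the test for gardiquimod against saline. The count was 0 of 9 by edgeR and by DESeq2 in females, in males and in the average of the sexes, beside 0.0232%, 0.221% and 0.215% of the 17218 genes tested. At an unadjusted p under 0.05 the edgeR counts were 1, 1 and 3. Tlr3 had 12.2 to 19.0 CPM with a median of 16.6 CPM in gardiquimod females, against 13.1 to 17.4 CPM with a median of 15.7 CPM in saline females (log2 0.03 ± 0.09). In males Tlr3 had 19.0 to 22.2 CPM with a median of 21.5 CPM after gardiquimod, against 13.9 to 20.7 CPM with a median of 16.7 CPM after saline (log2 0.28 ± 0.09, adjusted p = 0.155, edgeR). The groups overlapped in both sexes. For Tlr2 the values were 1.67 to 3.44 CPM in gardiquimod females against 1.21 to 1.9995 CPM in saline females, and 1.12 to 3.07 CPM in gardiquimod males against 0.990 to 2.33 CPM in saline males. The average of the sexes was 0.40 ± 0.15 for Tlr2, 0.54 ± 0.21 for Tlr1 and 0.15 ± 0.06 for Tlr3 (adjusted p = 0.663, 0.676 and 0.738, edgeR). The response differed between the sexes for 0 members by edgeR, by DESeq2 or at an unadjusted p under 0.05, beside 0.00581% of genes. The same was true of females against males after saline, beside 0.430%.

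The precision behind these values was low for most members: apart from Tlr3, with 203 to 450 counts a library in the agonist experiment, the 9 other members had 0 to 89 counts. The SE of the log2 response in 1 sex was 0.18 to 0.30 for the 8 other members tested, and 0.09 for Tlr3. Differences of about that size were not detectable at this depth and number of libraries, and larger ones also went uncalled. The log2 response of Tlr3 in males, 0.28, had an adjusted p of 0.155 (edgeR). The median log2 fold change of the 9 members was 0.08 in females and 0.18 in males, against 0.01 and -0.01 over all genes. Of the accessory genes, adaptors and NF-kB targets none passed in either sex.

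The inhibitor experiment gave no call for a member within a sex, and 1 for the difference between the sexes. The count was 0 of 9 by edgeR and by DESeq2 in females, in males and in their average, beside 0.0876%, 0.105% and 0.0117% of the 17128 genes tested, and the edgeR counts at an unadjusted p under 0.05 were 2, 2 and 0. Tlr4 had 0.425, 0.867, 1.11, 1.17 and 1.75 CPM in inhibitor females, against 1.45, 1.68 and 2.25 CPM in control females (log2 -0.80 ± 0.30, adjusted p = 0.319, edgeR). In males Tlr4 had 2.08 to 2.87 CPM with a median of 2.29 CPM after the inhibitor, against 1.20, 1.27 and 1.43 CPM in controls (log2 0.88 ± 0.29, adjusted p = 0.204, edgeR). The male groups did not overlap, which also held for 10.8% of all genes, and the female groups did. The difference of the responses, females minus males, was -1.67 ± 0.42 (adjusted p = 0.0415, edgeR), beside 2.41% of all genes called. This call held in 6 of 26 alternative fits and ended without any 1 of 14 of the 17 libraries, all but inhibitor female replicates 2 and 3 and control female replicate 1 (adjusted p = 0.0525 to 0.123). Library totals in place of the trimmed-mean scaling moved the median of all genes by 0.16 in this difference and gave -1.52 for Tlr4 (adjusted p = 0.0527).

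Tlr3 had a similar layout. It had 6.32, 9.33, 13.0, 15.1 and 15.5 CPM in inhibitor females, against 13.7, 17.9 and 18.4 CPM in control females (log2 -0.52 ± 0.24). Inhibitor males had 16.6 to 21.5 CPM with a median of 19.9 CPM, against 8.84, 14.8 and 15.9 CPM in control males (log2 0.59 ± 0.24), and the male groups did not overlap. The difference of the Tlr3 responses was -1.11 ± 0.33 and did not pass (adjusted p = 0.0687, edgeR). DESeq2 called it (-1.10, adjusted p = 0.0260), as did edgeR with microglia markers as a covariate (-0.72, adjusted p = 0.0262). It was also called without control female replicate 1 (adjusted p = 0.0413, edgeR) or inhibitor female replicate 3 (0.0216). Markers of astrocytes were laid out alike, with sums of 2284 to 8508 CPM (median 5110) in inhibitor females against 5499 to 8867 CPM (median 8407) in control females. In males they were 7820 to 10821 CPM (median 9274) after the inhibitor against 3131 to 6553 CPM (median 6284) in controls. Choroid plexus markers summed to 3755 to 4709 CPM in inhibitor females against 38.9 to 1569 CPM in control females, and to 83.8 to 4597 CPM in inhibitor males against 3321 to 3647 CPM in control males. With the astrocyte markers as a covariate the Tlr4 difference was -0.97 (adjusted p = 0.289), and with Ttr it was -2.01 (adjusted p = 0.167). With the microglia markers it was -1.30 (adjusted p = 0.0782, edgeR). With age as a covariate it was -1.65 and remained called (adjusted p = 0.0466, edgeR). Without male inhibitor replicates 1 and 2, which held Xist, it was -1.62 (adjusted p = 0.0941).

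The other members of the inhibitor experiment had wide errors. Tlr2 had 0.365 to 3.92 CPM in inhibitor females against 0.968 to 1.66 CPM in control females, and 0.857 to 1.85 CPM in inhibitor males against 1.20 to 1.51 CPM in control males. Tlr9 had a log2 response of -0.76 ± 0.41 in females and 0.03 ± 0.40 in males, and Tlr13 of -0.20 ± 0.32 and 0.65 ± 0.32. Females against males of the control groups differed for 0 members by edgeR, by DESeq2 or at an unadjusted p under 0.05, beside 0.0642% of genes. Of the pathway lists no gene passed within a sex, and 1 of 8 NF-kB targets, the NF-kB inhibitor gene Nfkbia, passed for the difference of the responses (1.23 ± 0.32, adjusted p = 0.0463, edgeR).

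**Figure D5:**
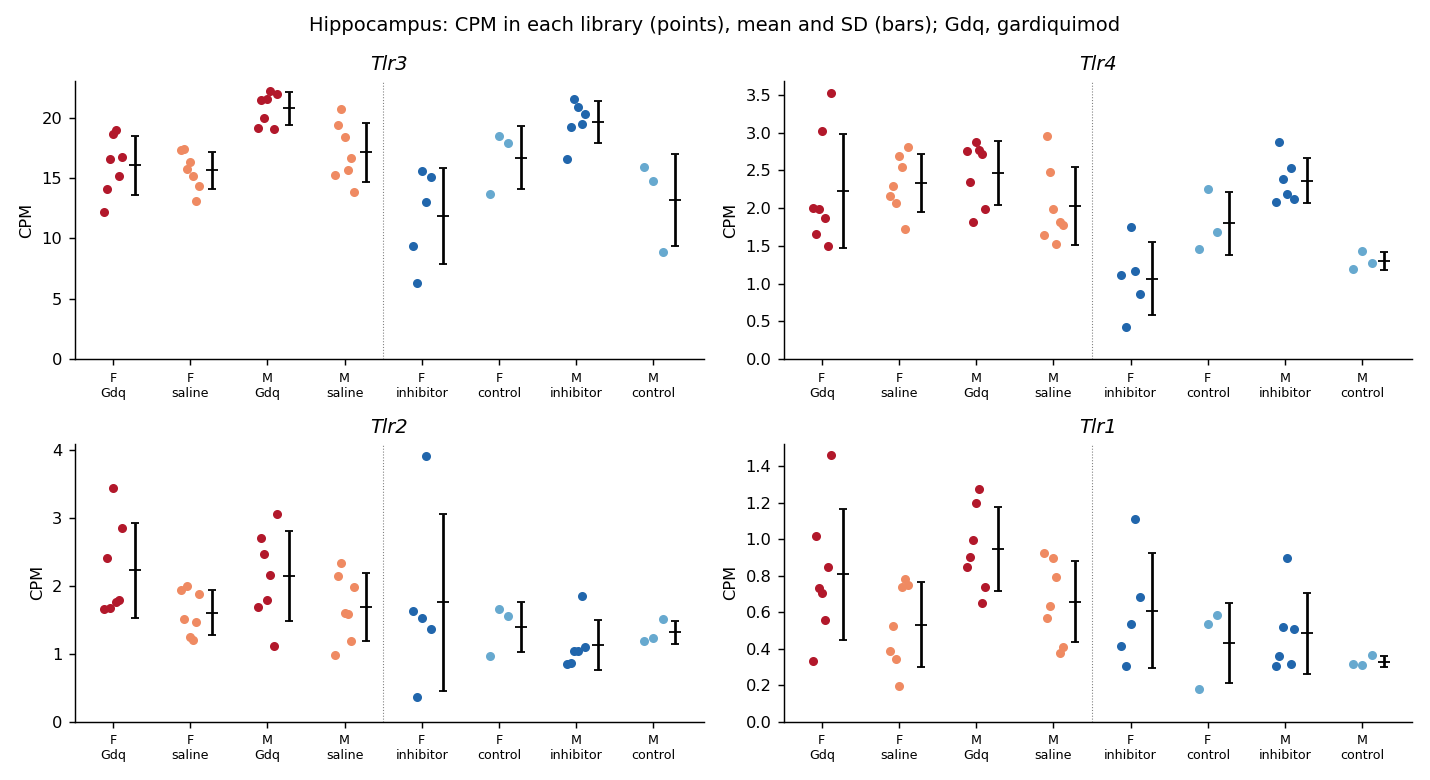
CPM of Tlr3, Tlr4, Tlr2 and Tlr1 in each hippocampal library (points), with mean and SD beside them, for gardiquimod and saline (7 libraries each) and for inhibitor (5 females, 6 males) and control (3 each). Axes are linear from 0, and Tlr4 after the inhibitor lies below most controls in females and above all controls in males.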

How the data were processed

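Libraries were made with a QuantSeq 3′ kit, per the labels' protocols. The authors deposited raw counts per gene in 3 tables, with the builds GRCm38 and mm10 and DESeq2 1.38.3 named in the submitters' processing notes; the aligner and counter were not given in the sources used here. Column names gave the sample of each of the 69 libraries. Each table was fitted separately with edgeR 4.0.16 (R 4.3.3): genes with low counts were removed by filterByExpr, libraries scaled by trimmed means, all groups of an experiment fitted with 1 term per group, and contrasts tested by the robust quasi-likelihood F test with Benjamini-Hochberg adjustment over all genes tested (threshold 0.05). An SE is the log2 fold change divided by the square root of F. The biological coefficient of variation was 0.0507 in microglia, 0.132 in the agonist and 0.179 in the inhibitor experiment. No 2 libraries agreed within counting noise. The fits were tested on simulated counts. Alternatives were DESeq2 1.42.0, other scaling, no filter, covariates, a replicate block and leaving out each library. Same-numbered microglia libraries of 1 sex and genotype deviated together in female KO cultures (r = 0.442, 0.214 and 0.117 between myelin and DMSO). They did so in no other sex and genotype. A pair of different numbers in female KO cultures also had r = 0.277. Between sexes or genotypes, 6 of 72 same-numbered pairs lay above 0.1, up to r = 0.171, against 0 of 144 pairs of different numbers. All 6 held a female KO library. The labels do not say what the numbers share. The members, gene lists and tests were chosen with earlier results of these data known. All members are described; the values of further genes named are those of the 3 leading genes of each list, and the 3 genes most like each member.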

Additional observations from a re-analysis of the deposited data

Results flagged for a closer look

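In 5 of the 60 sets of 4 to 10 libraries examined, 1 library lay far from the others of its group, and chance gives about 1 in 20. Tlr6 was 0.354 CPM in gardiquimod female replicate 5 against 0.588 to 0.699 CPM in the others. Tlr8 was 0.353 CPM in gardiquimod male replicate 1 against 0 to 0.120 CPM, a difference of a few counts. In inhibitor males, Tlr1 was 0.897 CPM in replicate 4 against 0.306 to 0.522 CPM, Tlr2 was 1.85 CPM in replicate 5 against 0.857 to 1.09 CPM, and Tlr13 was 4.01 CPM in replicate 6 against 1.42 to 2.39 CPM.

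In 8 cases the test of a difference between groups passed. The response to myelin, KO minus WT, differed for Cd14 by -0.96 in males and -0.47 in females, and for Tlr2 by -0.74 in females. The effect of the deletion, females minus males, differed with DMSO by 0.45 for Tlr2, -0.21 for Tlr8 and -0.25 for Tlr13, and with myelin by 0.43 for Cd14. The response to the inhibitor, females minus males, differed by -1.67 for Tlr4.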

How the results depend on the processing

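Of the values of single members under the alternatives, 7164 were alike, either called in both fits with the same direction or called in neither. Of the rest, 94 gained a call, 110 lost one and 2 turned round. Those 2 came with the Ttr and Pdgfra levels as covariates: Tlr13 in male KO over WT with myelin (-0.0048, adjusted p = 0.988) and Tlr8 in the effect of the deletion, females minus males, with DMSO (0.12, adjusted p = 0.939). The cause was not tested. Counts of members called moved by over 1.5 times as follows. With these covariates they were 3 for myelin in female KO, 2 and 3 for KO over WT in male cultures with DMSO and with myelin, 3 in female cultures with DMSO, and 0 for the female myelin interaction, for both differences of the deletion effect between the sexes and for females over males in WT with myelin. With border macrophage markers as a covariate, a fit chosen after seeing the data, KO over WT in males with myelin had 4. With DESeq2 the counts were 3 for KO over WT in females with DMSO, 2 for the deletion effect between the sexes with myelin and 2 for the inhibitor response between the sexes. Without a filter on low counts they were 3, 2 and 0 for the same comparisons, 2 for the male myelin interaction and 1 for the WT myelin response between the sexes. Library totals alone gave 7 for myelin in male WT and 0 for the inhibitor response, and median-of-ratios scaling gave 2 for the deletion effect with myelin. The inhibitor response was also 0 with Ttr or with astrocyte markers as a covariate, and without both libraries that held Xist. With microglia markers as a covariate the call passed from Tlr4 (adjusted p = 0.0782, edgeR) to Tlr3 (log2 -0.72, adjusted p = 0.0262, edgeR). With the replicate block, 144 of 150 values were called in both fits or in neither. Another 6 gained a call and none lost one, and the deletion effect with myelin had 2 calls. Same-numbered libraries correlated above 0.1 in 3 of 12 pairs of 1 sex and genotype, which were the 3 female KO pairs. The same held for 6 of 72 pairs between sexes or genotypes. The gained calls were Tlr2 with myelin in female KO and Tlr2 for KO over WT in females with myelin. The others were Tlr3 and Tlr4 with myelin in male WT, Tlr4 for KO over WT in males with DMSO, and Tlr13 for the deletion effect with myelin. Leaving out 1 library at a time gave 3 to 5 calls for KO over WT in females with DMSO, 5 to 8 in males with myelin, 1 to 2 for the male myelin interaction, 1 to 3 for the deletion effect with myelin and 0 to 2 for the inhibitor response. Depth limits the hippocampal values, where the members other than Tlr3 rest on few counts.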
